A study of Mus musculus with 4 samples.

Results

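The 10 genes described here encode the ligands and receptors by which bone marrow holds and feeds its blood cells: Cxcl12, Cxcr4, Ackr3, Kitl, Kit, Il7, Il7r, Vcam1, Itga4 and Lepr. They were chosen by name and not by a rule on their values, though with earlier results of these data known. The choice was from the 32285 genes listed in each of 4 mouse single-cell RNA libraries, and all 10 were detected in every library. The mice had an injury of the distal femoral growth plate, and tissue was taken 7 days later. Each of the 4 groups was 1 library. The growth plate vehicle and growth plate 1NMPP1 libraries came from the distal femoral epiphysis with the tissue around the injured growth plate, and the DRG vehicle and DRG 1NMPP1 libraries from lumbar dorsal root ganglia, which hold the cell bodies of sensory neurons. All 4 groups share a knock-in change in a receptor kinase of sensory neurons that lets the small molecule 1NMPP1 inhibit it. 1NMPP1 was injected at 17 µg per g of body weight 48 h and 2 h before surgery and then given at 40 µM in drinking water, and vehicle mice received DMSO. The change is carried in the animals' own gene, so the comparison is of drug with vehicle within 1 genotype; an unmodified genotype given the drug was not analysed here. The labels used here give no strain, age, sex or number of animals per library. The study asked how sensory nerves bear on what grows at an injured growth plate; values of the targeted kinase are not reported here.

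In bone marrow, perivascular stromal cells that carry the leptin receptor, LEPR, release the chemokine CXCL12 and display stem cell factor, the product of Kitl. CXCL12 acts through CXCR4 on blood cells and keeps them in the marrow, while ACKR3 binds the same ligand and removes it. Stem cell factor acts through the receptor tyrosine kinase KIT on stem cells, progenitors and mast cells, interleukin 7 acts through IL7R on developing lymphocytes, and the adhesion molecule VCAM1 binds the integrin VLA-4, of which Itga4 encodes the alpha 4 chain. Several of these genes also work outside marrow: endothelium makes CXCL12 and stem cell factor in many organs, and some sensory neurons carry KIT.

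The genes lie on 8 mouse chromosomes (GRCm38, GENCODE vM21). Cxcl12 spans chr6:117168535-117181367 on the plus strand, Kitl chr10:100015630-100100416 (plus), Il7 chr3:7569994-7613760 (minus), Cxcr4 chr1:128588199-128592293 (minus), Ackr3 chr1:90203980-90216751 (plus), Kit chr5:75574916-75656722 (plus), Il7r chr15:9505788-9530176 (minus), Lepr chr4:101717404-101815352 (plus), Vcam1 chr3:116109949-116129688 (minus) and Itga4 chr2:79255426-79333123 (plus). The promoters of Cxcl12 and Cxcr4, a ligand and its receptor, and of Il7r, a receptor whose levels below are restricted to a few stages, are printed 5′ to 3′ as the 150 bases before the start of each gene, on the gene's own strand, from RefSeq's promoters (GRCm38.p6). Capitals mark a GC box (GGGCGG) or a TATA box (TATAAA) read on either strand.
Cxcl12 promoter, chr6:117168385-117168534, plus strand: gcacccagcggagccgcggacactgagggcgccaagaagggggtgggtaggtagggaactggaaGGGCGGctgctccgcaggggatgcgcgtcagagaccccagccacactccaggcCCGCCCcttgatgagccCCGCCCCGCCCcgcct
Cxcr4 promoter, chr1:128592300-128592449, minus strand: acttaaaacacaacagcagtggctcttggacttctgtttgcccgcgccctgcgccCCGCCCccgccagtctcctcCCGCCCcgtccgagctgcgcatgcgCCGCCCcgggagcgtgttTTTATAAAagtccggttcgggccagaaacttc
Il7r promoter, chr15:9530177-9530326, minus strand: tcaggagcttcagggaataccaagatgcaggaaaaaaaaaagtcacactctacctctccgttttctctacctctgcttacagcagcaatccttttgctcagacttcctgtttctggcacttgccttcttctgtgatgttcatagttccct
The Cxcl12 stretch is 72.7% G or C with 12 CpG pairs and 4 GC boxes, and the Cxcr4 stretch is 63.3% G or C with 15 CpG pairs, 3 GC boxes and 2 overlapping TATA matches. The Il7r stretch is 44.7% G or C with 1 CpG pair and neither motif. The wider windows of 300 bases run from 250 before to 50 after each start, and the 8 members that the promoter table holds have 10 of them. A GC box stood in 8 of the 10 windows (7 of the 8 members), against 35.7% of all 32851 windows. A TATA box stood in 3 of the 10 (Ackr3, Cxcr4 and Kitl), against 13.6%. None of the 10 windows held the EBF motif, TCCC and GGGA with 2 bases between (0.904% of all windows), the forkhead motif TGTTTAC (3.65%) or the hypoxia core ACGTG (19.6%). These matches describe letters in a window and no binding was measured.

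The libraries held 102693014 unique molecular identifiers (UMIs, counts of single RNA molecules) in growth plate vehicle, 139703885 in growth plate 1NMPP1, 57303894 in DRG vehicle and 32791945 in DRG 1NMPP1, over 8649, 10519, 2830 and 2146 cells kept. The median cell had 6501, 7046, 10411 and 6958 UMIs, in the same order. Every library mixed cells of both sexes, and the share of cells with Y-linked transcripts and no Xist was lower with 1NMPP1 in both tissues (49.6% against 24.7% in growth plate, 45.7% against 17.4% in DRG). Between 4 and 40 barcodes were shared by a pair of libraries. The growth plate libraries were mostly marrow blood cells. The DRG libraries also held blood cells, such as 310 and 339 erythroid cells, and 55 cartilage cells in the vehicle library against 0 with 1NMPP1. Cells were grouped into classes by markers that include none of the 10 genes, so every class name below means "like" that cell type. Levels are given as CPM, the UMIs of a gene per 1000000 UMIs of the class in a library, first in vehicle and then in 1NMPP1, with 95% Poisson intervals that cover counting error only. They are compared between classes and libraries for 1 gene at a time, never between genes, since the counts are not per length. A share of summed CPM, as given below, weighs every class alike whatever its number of cells, and is not a share of UMIs. With 1 library per group there is no replicate spread and no test: a difference between libraries is one between those libraries, whatever its counting interval.

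Cxcl12 was concentrated in very few cells of the growth plate libraries. Marrow stromal-like cells, 11 in vehicle and 7 in 1NMPP1, had 12980 CPM (95% interval 12310 to 13670) and 5221 CPM (4881 to 5579), and these 18 cells accounted for 93.3% of the Cxcl12 CPM summed over all classes. Their identity rests on 8 marrow stromal markers, Adipoq, Foxc1, Ebf3, Lpl, Gdpd2, Grem1, Igfbp5 and Cbln1, all detected in both libraries, with a sum of 8388 CPM in vehicle and 4092 CPM in 1NMPP1. The same cells also held osteoblast markers (2744 and 1912 CPM) and mature neutrophil markers (1582 and 597 CPM). Over both libraries the stromal cells had 8287 CPM and endothelial-like cells 434.6 CPM, but the latter came from 25.4 CPM in vehicle (6 UMIs) and 605 CPM in 1NMPP1, where 1 cell held 250 of 344 UMIs. An unnamed cluster of collagen-expressing cells (Col3a1, Col1a1, Postn) had 113 and 55.0 CPM, so it stood above endothelial-like cells in vehicle and below them in 1NMPP1. In blood cells Cxcl12 was near its floor: 4 of 1387 and 4 of 1640 pre-B-like cells had any Cxcl12 UMI, and none of the 73 and 23 chondrocyte-like cells did.

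Per cell, Cxcl12 in the vehicle marrow stromal-like cells ran from 8217 to 26670 CPM around a median of 11840, and in 1NMPP1 from 92.9 to 27110 CPM around a median of 7630. The vehicle range lay inside the 1NMPP1 range, but the 1NMPP1 median lay below the lowest vehicle cell. Most 1NMPP1 cells thus had less Cxcl12 than any vehicle cell. In the 1NMPP1 library 1 cell with 86407 UMIs supplied 51.6% of the class's UMIs. Without the deepest cell of each library the levels were 11840 and 8373 CPM, so the gap between the pooled levels narrowed by more than 1.5 times with that cell out. With fewer than 15 cells in each library the class was not used for ratios.

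Kitl, the gene for stem cell factor, was highest in the same cells as Cxcl12. It stood at 1463 CPM (1245 to 1709) in the vehicle and 806.5 CPM (676.2 to 954.6) in the 1NMPP1 marrow stromal-like cells, and was seen in 10 of 11 and 7 of 7 of them. Its per-cell medians were 963.6 and 610.4 CPM, and its levels without the deepest cells 1386 and 1099 CPM. The stromal cells held 76.2% of its summed CPM. In growth plate endothelial-like cells Kitl stood at 178 and 192 CPM in 11 and 15 cells (42 and 109 UMIs), and osteoblast-like cells came next at 52.4 CPM over both libraries.

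Lepr, which receives leptin and marks this stroma, was detected in all 18 marrow stromal-like cells, with 905.5 CPM (736 to 1102) in vehicle and 430.1 CPM (336.6 to 541.7) in 1NMPP1, or 90.9% of its summed CPM. Endothelial-like cells followed at 42.2 CPM over both libraries. Il7, the ligand of Il7r, was the sparsest of the 10 genes, with 25 UMIs in the 8649 kept cells of growth plate vehicle. Even so, 9 of the 18 stromal cells had an Il7 UMI, at 64.0 CPM (25.7 to 132) in vehicle and 77.7 CPM (41.4 to 133) in 1NMPP1, where 1 cell held 9 of the 13 UMIs. The next class, the collagen-expressing cluster, was at 1.95 CPM.

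Cxcl12, Kitl and Lepr were detected together in most of these cells: 10 of 11 vehicle and 7 of 7 1NMPP1 stromal cells had a UMI of each, and 10 and 6 of them had Vcam1 as well. The receptors of their ligands had few or no UMIs there. Ackr3 had 0 UMIs in both libraries, which allows up to 27.4 CPM in vehicle and 17.9 CPM in 1NMPP1 (3 UMIs of the class total). Kit had 2 and 0 UMIs, and Cxcr4 had 16 and 10 UMIs (146 and 59.7 CPM) beside the neutrophil markers given above.

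For Vcam1 stroma did not lead. Macrophage-like cells of the growth plate had 1682 CPM (1569 to 1802) in 39 vehicle cells and 834.6 CPM (756.0 to 919.1) in 53 1NMPP1 cells, 54.0% of its summed CPM over both libraries. Marrow stromal-like cells followed with 731.7 CPM (580.2 to 910.7) and 507.8 CPM (405.6 to 627.9), then endothelial-like cells at 163 CPM over both libraries. Among neutrophil stages Vcam1 was lower at each later stage, from 52.5 and 51.4 CPM in granulocyte progenitor-like cells to 10.3 and 10.5 CPM at the granule stage and 2.18 and 1.73 CPM in mature neutrophil-like cells.

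**Figure D1:**
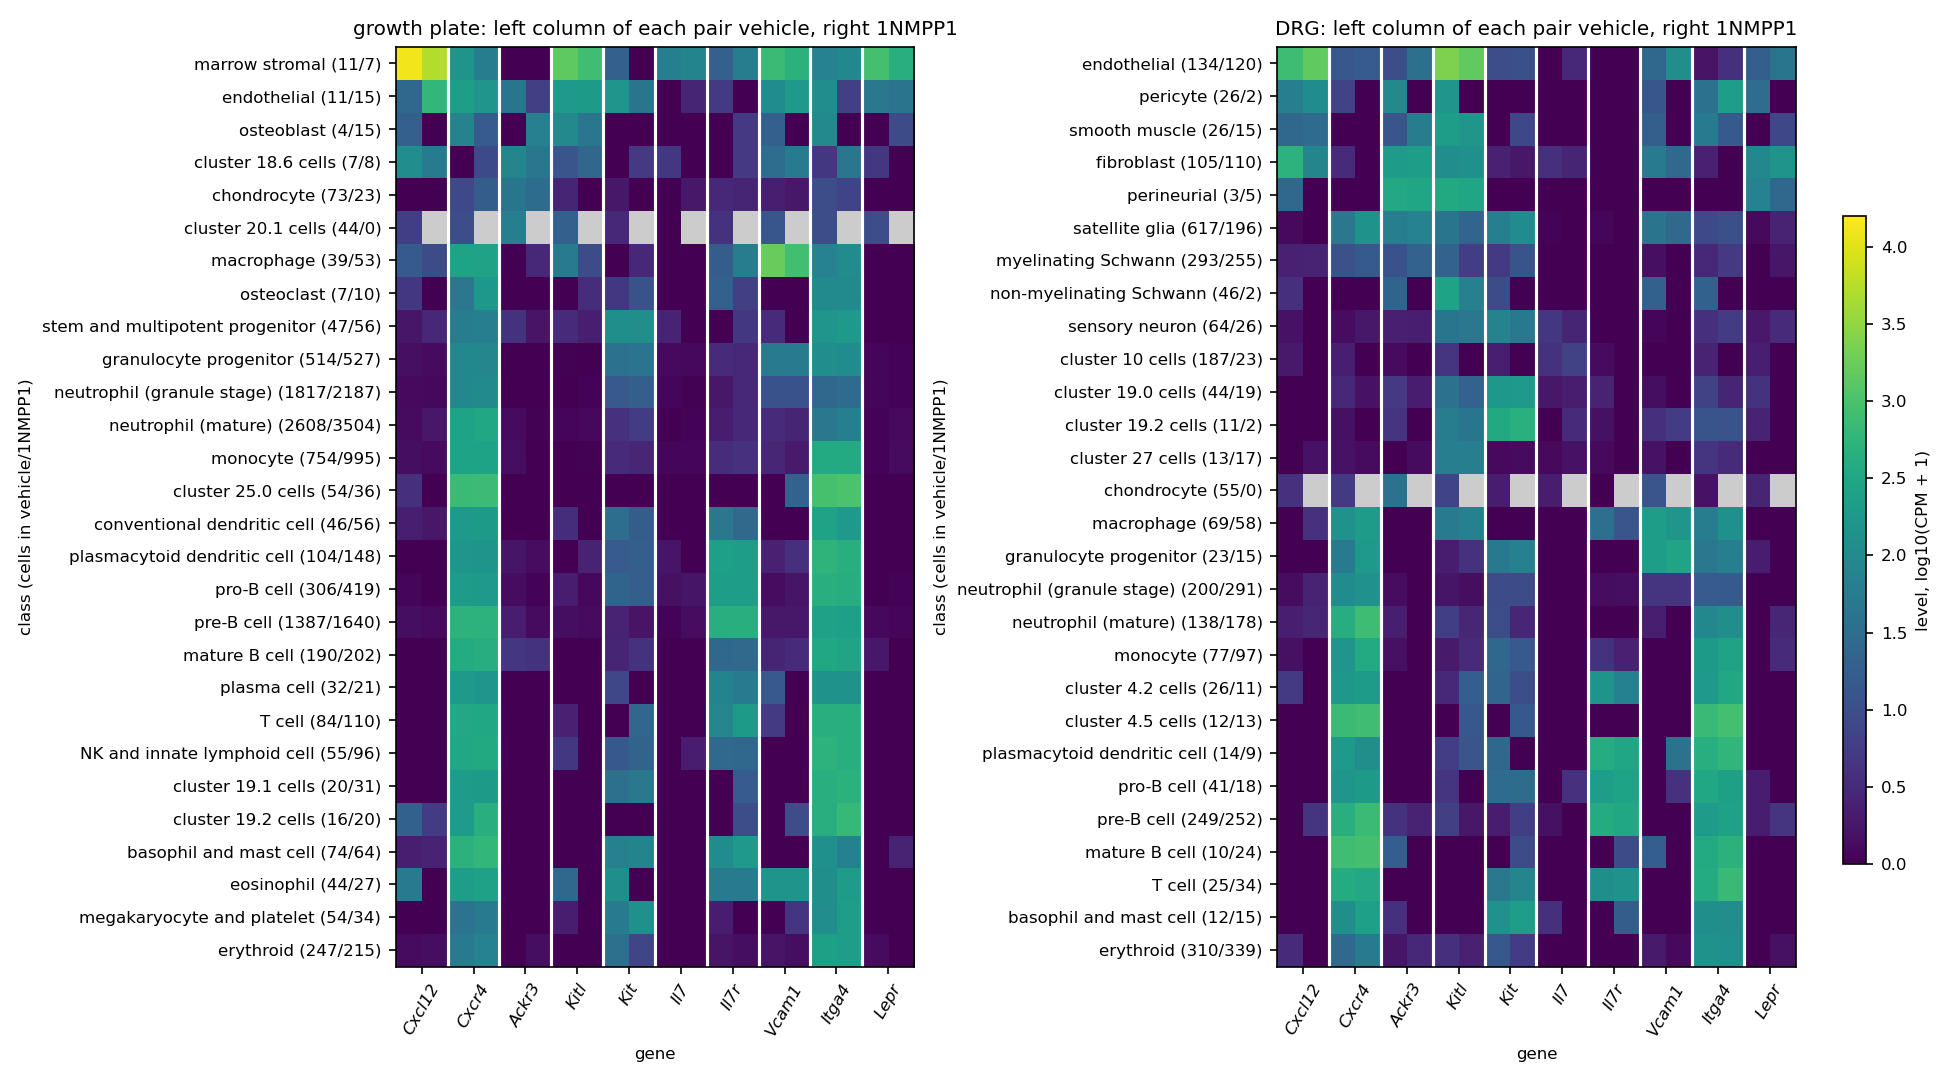
Levels of the 10 genes in every class, as log10 of CPM plus 1, for growth plate (left heatmap) and DRG (right heatmap); each gene has a vehicle and a 1NMPP1 column, the row labels give the cells per library, and grey marks a class with no cells in a library. Cxcl12, Kitl, Lepr and Il7 are brightest in the marrow stromal row of the growth plate and Cxcl12 and Kitl in the endothelial row of the DRG, while Cxcr4 and Itga4 fill the blood rows of both tissues.

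In the DRG libraries, where no cluster was named marrow stromal, the same ligands led in blood vessels. Endothelial-like cells (134 and 120 cells) had 774.2 CPM of Cxcl12 (742.9 to 806.4) in vehicle and 1473 CPM (1411 to 1537) in 1NMPP1, and 114 and 101 of the cells had a UMI. They held 69.8% of the summed Cxcl12 CPM of the ganglia, ahead of fibroblast-like cells (325 CPM over both libraries) and pericyte-like cells (64.9 CPM). Kitl stood at 2332 CPM (2278 to 2388) and 1495 CPM (1432 to 1560) in the same endothelial-like cells, and 133 of 134 and 114 of 120 cells had it. Thus the ligands differed between the libraries in opposite directions within 1 class: Cxcl12 was 0.93 higher with 1NMPP1 on the log2 scale (0.84 to 1.01) and the ratio of Kitl was -0.64 (-0.71 to -0.57). Both differences were short of 2-fold.

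Per-cell medians in the DRG endothelial-like cells moved the same way, from 407 to 1006 CPM for Cxcl12 and from 2184 to 1291 CPM for Kitl. The 8 endothelial markers summed to 8536 CPM in vehicle and 8878 CPM in 1NMPP1, none at 0, and fibroblast markers to 35.5 and 52.4 CPM. Median depth differed, with 18670 UMIs per vehicle cell and 8892 per 1NMPP1 cell. With each cell thinned to 1000 UMIs, Cxcl12 was seen in 36.8% of vehicle and 61.5% of 1NMPP1 endothelial-like cells. Among cells called male the Cxcl12 ratio was 1.43 and among cells called female 0.62, and for Kitl -0.80 and -0.37.

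Other DRG classes carried Kitl at lower levels. Non-myelinating Schwann-like cells, 46 of them in vehicle and only 2 in 1NMPP1, had 276 CPM in vehicle with a UMI in 22 of the 46, smooth muscle-like cells had 219 and 166 CPM, and pericyte-like cells, whose leading genes include the bone gene Bglap, 162 CPM in vehicle. An unnamed cluster led by Th and Fxyd2, genes of a class of touch-sensing neurons, had Kitl in all of its 13 and 17 cells at 62.2 and 60.8 CPM. Other sensory neuron-like cells had 41.5 and 46.8 CPM.

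Lepr and Ackr3 led in DRG fibroblast-like cells (105 and 110 cells), whose 8 fibroblast markers were all detected (29970 and 27290 CPM). Lepr stood at 89.8 and 146 CPM there, 62.3% of its summed CPM. Ackr3, the scavenger of CXCL12, stood at 203 and 224 CPM in 64 and 60 cells, a difference of 0.14 on the log2 scale whose counting interval held 0 (-0.10 to 0.39). The few perineurial-like cells (3 and 5) had 337 and 303 CPM of Ackr3, pericyte-like cells 93.6 CPM in vehicle and satellite glia-like cells 61.9 and 70.5 CPM. In the growth plate Ackr3 was likewise outside the blood, at 81.6 and 43.2 CPM in the collagen-expressing cluster, 61.2 CPM in a vehicle-only cluster of 44 cells led by Prg4, the lubricin gene of joint surfaces, and 41.7 and 29.2 CPM in chondrocyte-like cells, 20 of 73 and 4 of 23 of which had a UMI.

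**Figure D2:**
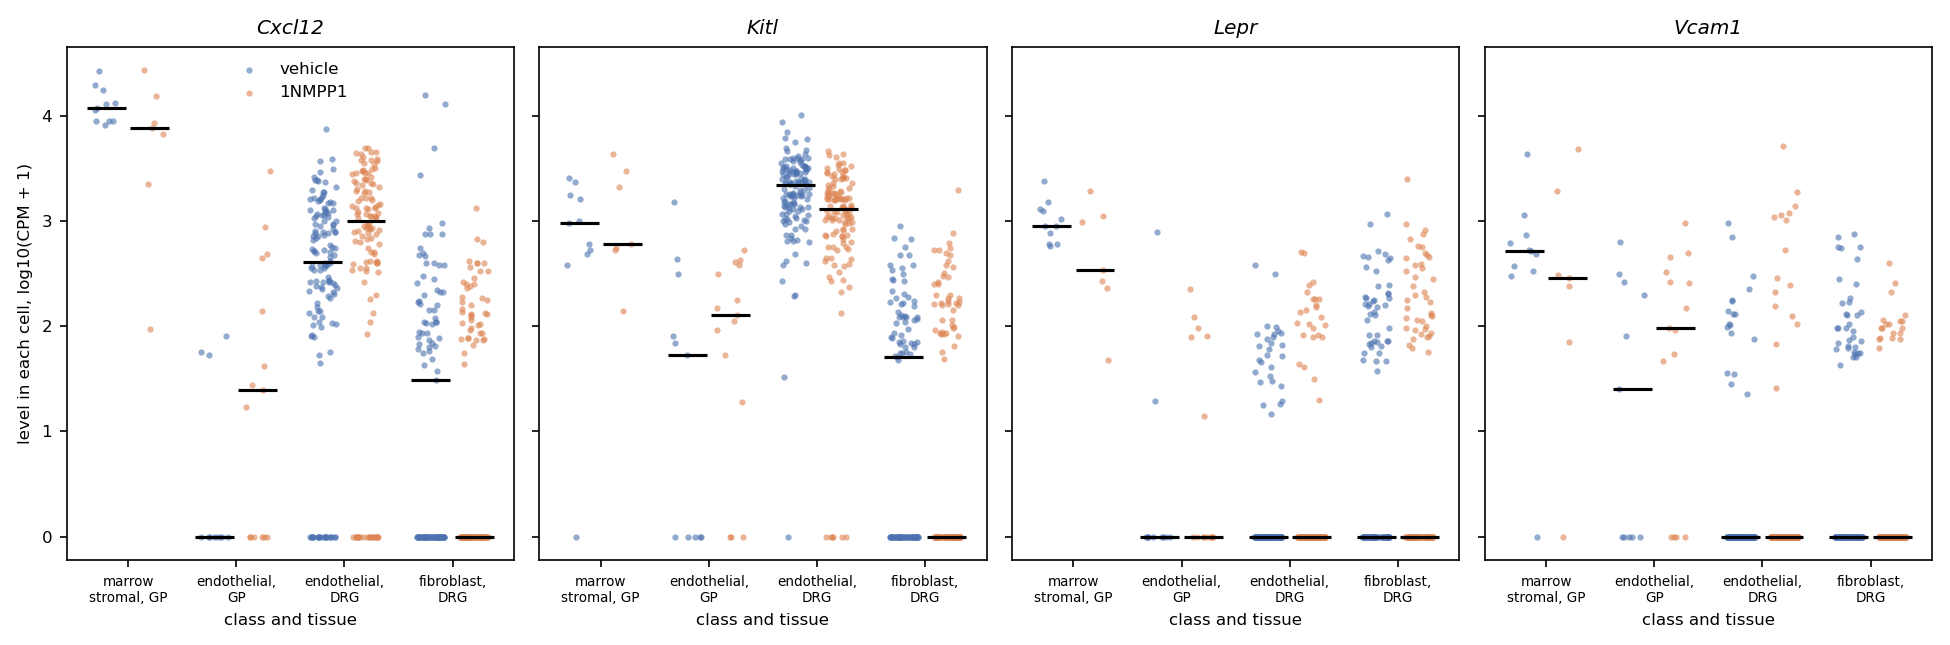
Each point is 1 cell, at log10 of its CPM plus 1, for Cxcl12, Kitl, Lepr and Vcam1 in growth plate marrow stromal-like and endothelial-like cells and in DRG endothelial-like and fibroblast-like cells; bars are medians and the libraries are shown side by side. Nearly every growth plate stromal cell lies high for Cxcl12, Kitl and Lepr, 1 stromal cell of the 1NMPP1 library lies low for Cxcl12 (92.9 CPM), and most DRG endothelial-like cells lie high for Cxcl12 and Kitl but at 0 for Lepr and Vcam1.

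The receptors were read along the blood stages of the growth plate, where both libraries had many cells. Among the blood stages Kit was highest in stem and multipotent progenitor-like cells, at 124.4 CPM (106.0 to 145.2) in vehicle and 116.2 CPM (99.83 to 134.4) in 1NMPP1, and 43 of 47 and 50 of 56 of these cells had it. It was lower in granulocyte progenitor-like cells (37.7 and 38.5 CPM) and pro-B-like cells (21.9 and 17.4 CPM). It was then lower again at the granule stage of neutrophils (14.2 and 17.4 CPM), in mature neutrophil-like cells (2.93 and 4.38 CPM) and in pre-B-like cells (1.56 and 0.692 CPM). Basophil and mast cell-like cells, in which KIT is a known growth factor receptor, had 66.7 and 78.8 CPM, in 14 of 74 and 4 of 64 cells. Over both libraries their 72.2 CPM lay below the 119.9 CPM of the stem and multipotent progenitor-like cells. Endothelial-like cells had 152 CPM in vehicle (107 to 211), above the stem and multipotent progenitor-like cells of that library with overlapping intervals, and 42.2 CPM in 1NMPP1. Eosinophil-like cells had 5 and 0 Kit UMIs, too few to place them in the order (83.4 CPM over both libraries, 27.1 to 194).

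Il7r took the opposite course in the B lineage and was nearly silent in the neutrophil lineage. Stem and multipotent progenitor-like cells had 0 UMIs in vehicle and 3.87 CPM in 1NMPP1, pro-B-like cells 215 CPM in both libraries, pre-B-like cells 429.4 CPM (415.9 to 443.2) and 427.8 CPM (416.6 to 439.2), and mature B-like cells 24.8 and 27.4 CPM. Neutrophils, which lack this receptor, gave the background: 1.09 and 2.02 CPM in mature neutrophil-like cells. Thinned to 1000 UMIs per cell, 28.7% and 31.9% of pre-B-like cells had an Il7r UMI, against 0.159% and 0.147% of mature neutrophil-like cells. At full depth the shares were 72.7% and 76.2% against 0.498% and 0.999%, with median depths of 5184 and 6386 UMIs in pre-B-like and 4094 and 4554 in mature neutrophil-like cells. Outside the B lineage, plasmacytoid dendritic cell-like cells had 233 and 218 CPM and basophil and mast cell-like cells 111 and 184 CPM.

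Kit and Il7r were detected together in 41 of 306 and 67 of 419 pro-B-like cells and in 7 of 104 and 16 of 148 plasmacytoid dendritic cell-like cells, against 11 of 1387 and 6 of 1640 pre-B-like cells and 0 of 47 and 4 of 56 stem and multipotent progenitor-like cells. In the DRG libraries 12 of 41 and 4 of 18 pro-B-like cells and 3 of 14 and 0 of 9 plasmacytoid dendritic cell-like cells held both. These shares depend on the depth of the cells, and pro-B-like cells were deeper (10874 and 12401 UMIs in growth plate) than pre-B-like cells.

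Cxcr4, the receptor for CXCL12, was present in all blood stages and higher at the late than at the early stages of both lineages. In the B lineage it went from 58.7 and 60.7 CPM in stem and multipotent progenitor-like cells through 200 and 185 CPM in pro-B-like cells to 521.8 CPM (506.9 to 537.0) and 519.3 CPM (507.0 to 531.8) in pre-B-like cells, then stood at 376 and 414 CPM in mature B-like cells. In the neutrophil lineage it went from 89.2 and 87.8 CPM in progenitors and 90.1 and 100.1 CPM at the granule stage to 269.5 CPM (260.2 to 278.9) and 322.8 CPM (314.4 to 331.4) in mature neutrophil-like cells. The highest level belonged to an unnamed cluster of 54 and 36 cells led by Adgre4, Pparg and Ace, genes of patrolling monocytes, at 736 and 751 CPM. Basophil and mast cell-like cells followed at 542 CPM over both libraries, and their interval overlapped that of pre-B-like cells at 520 CPM. Chondrocyte-like cells, at 7.58 and 16.3 CPM, give the level in cells with little or none.

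Itga4 was highest in the same unnamed monocyte-gene cluster (935 and 1016 CPM) and took another course. In the B lineage it was highest at the pro-B stage, at 421 and 418 CPM, with 255 and 233 CPM in pre-B-like and 313 and 285 CPM in mature B-like cells. In the neutrophil lineage it was lowest at the granule stage, 24.8 and 28.2 CPM, between progenitors at 113 and 109.6 CPM and mature neutrophil-like cells at 47.6 and 63.7 CPM. Monocyte-like cells had 368 and 366 CPM, with a UMI in 92.8% and 94.8% of cells. Cxcr4 and Itga4 were detected together in 252 of 306 and 346 of 419 pro-B-like cells and in 595 of 754 and 856 of 995 monocyte-like cells, but in 249 of 2608 and 480 of 3504 mature neutrophil-like cells. Cxcr4 and Ackr3 together were almost absent from blood: 6 of 1387 and 3 of 1640 pre-B-like cells had both.

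**Figure D3:**
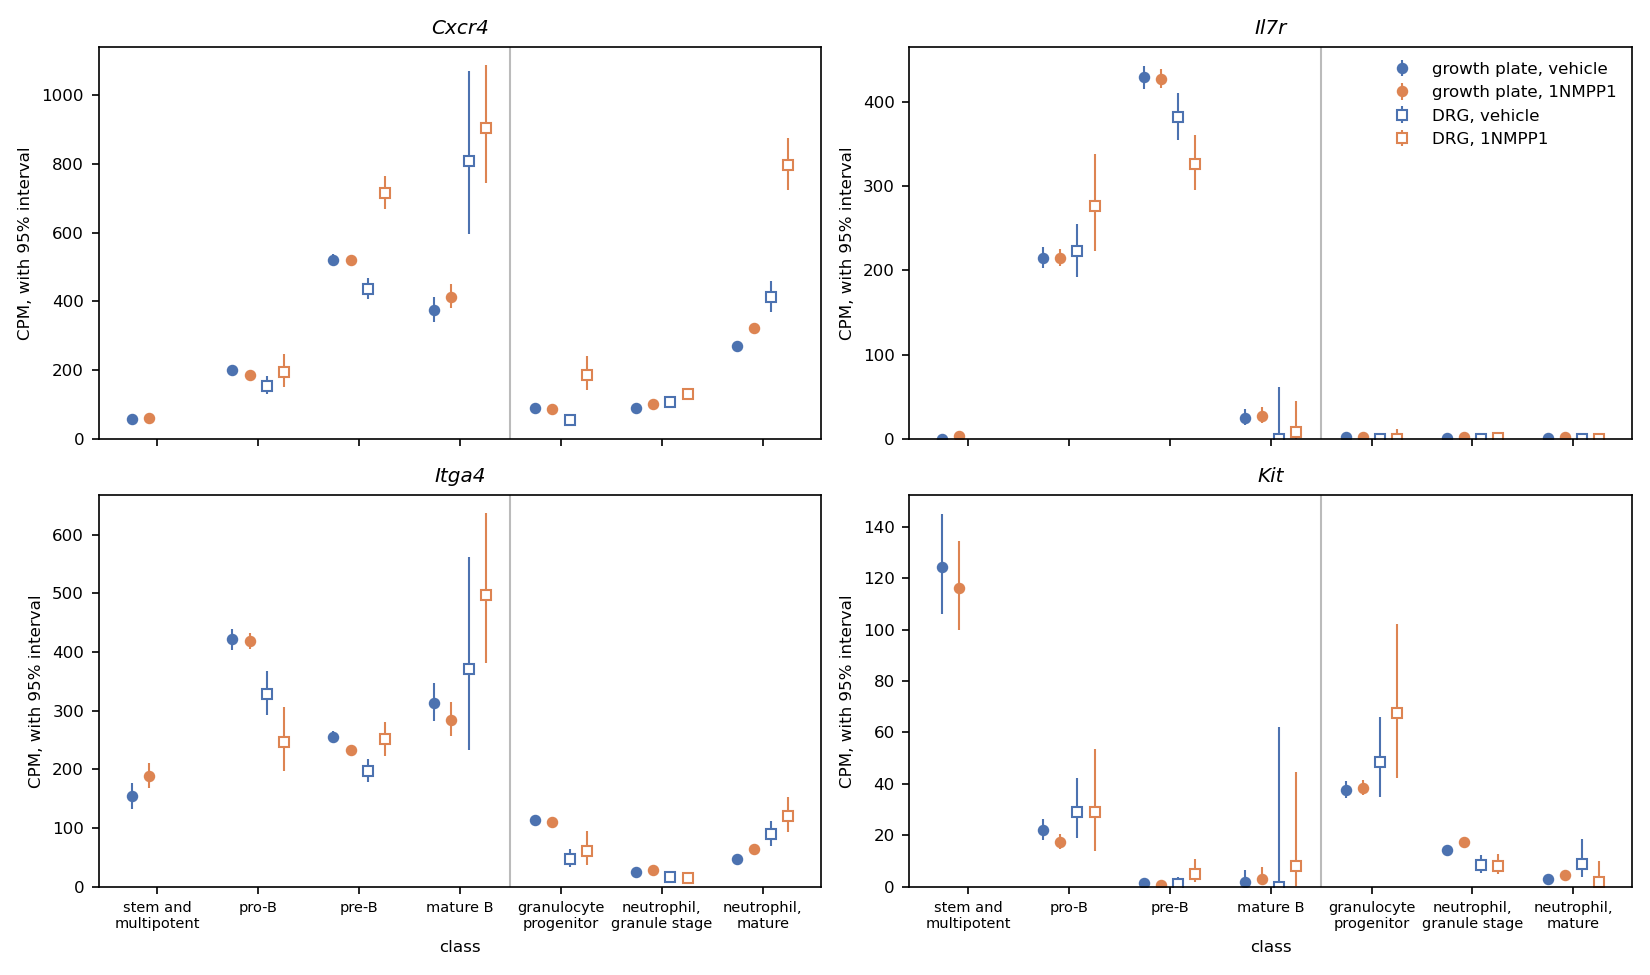
CPM of Cxcr4, Il7r, Itga4 and Kit along the B lineage (left of the vertical line) and the neutrophil lineage (right), with 95% Poisson intervals; filled circles are growth plate and open squares DRG, coloured by library, and each axis starts at 0. Il7r peaks at the pre-B stage and Kit in stem and multipotent progenitor-like cells, while Cxcr4 is higher at the late stages and Itga4 in the B lineage is highest at the pro-B stage in growth plate but in mature B-like cells in DRG.

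The blood cells in the DRG libraries had the same order for Il7r, with 222 and 276 CPM in pro-B-like and 382 and 327 CPM in pre-B-like cells. Kit in the ganglia was instead a neuronal and glial gene as well. An unnamed neuronal cluster led by Gal, Tac1 and Calca, peptide genes of pain-sensing neurons, had 174 and 183 CPM in 44 and 19 cells, and another unnamed neuronal cluster of 11 and 2 cells had 355.5 and 456.5 CPM with a UMI in 10 and 2 cells. Sensory neuron-like cells had 73.8 and 48.9 CPM and satellite glia-like cells 63.7 and 108 CPM, beside 131 and 214 CPM in the 12 and 15 basophil and mast cell-like cells. Il7 in the ganglia had no class above 3.63 CPM over both libraries, and sensory neuron-like cells had 3.88 and 1.72 CPM from 20 and 4 UMIs.

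Across the classes, the similarity of the patterns can be put as a correlation, given as a description because the classes share libraries and depth. Over 39 classes with at least 15 cells in each library, Pearson's r of log2(CPM + 1) was 0.79 between Cxcr4 and Itga4, 0.75 between Cxcl12 and Lepr, 0.73 between Cxcl12 and Kitl, 0.19 between Cxcl12 and Il7 and -0.65 between Ackr3 and Itga4. Those 39 classes leave out the marrow stromal-like cells; over 54 classes that include them, Cxcl12 with Lepr was 0.85 and with Il7 0.57. Among 14141 genes, those most like Cxcl12 were Slco2a1 (0.85), Esm1 (0.82) and Kcnq1 (0.82), and those most like Kitl were Mtmr11 (0.89), Gas6 (0.89) and Dlc1 (0.87). Lepr was most like Bmp4 (0.91), Fmo2 (0.88) and Fbln1 (0.87), Ackr3 like Gas1, Evc and Mxra8 (each 0.93), and Il7 like Prr16 (0.84), Gprin2 (0.84) and Sprn (0.83). Without the stromal cells Il7 stood at no more than 3.63 CPM in any class over both libraries, so its values over the 39 classes rest on few UMIs. Cxcr4 was most like Dock2 (0.92), Pik3cg (0.90) and Hcls1 (0.89), Itga4 like Aim2 (0.93), Ap1g2 (0.86) and Ikzf1 (0.86), and Il7r like Cd72 (0.88), Slamf6 (0.84) and Irf4 (0.83). Vcam1 (Plau, 0.67) and Kit (Ciapin1, 0.68) had no gene above 0.7.

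The 1NMPP1 and vehicle libraries were then compared class by class, for classes with at least 15 cells in each library and genes with at least 20 UMIs over both. A value counted as past 2-fold when its log2 ratio, 1NMPP1 over vehicle with 0.5 UMI added to each sum, was at least 1 either way and its counting interval left out 0. In the growth plate 10 of 77 such values were past 2-fold, against 4.53% of the values of all genes in the same classes. By direction, 7 were higher with 1NMPP1 (9.09% against 2.06%) and 3 lower (3.9% against 2.48%). In the DRG 14 of 62 were past 2-fold, 22.6% against 10.4%, with 9 higher (14.5% against 5.4%) and 5 lower (8.06% against 4.98%). The median ratio of the 77 growth plate values was 0.03 (all genes, -0.01) and of the 62 DRG values 0.28 (all genes, 0.08).

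In the growth plate, no member was past 2-fold in monocyte-like cells (all genes, 1.09% higher and 1.27% lower). Il7r had log2 ratios of -0.01 in pre-B-like and 0.00 in pro-B-like cells. In mature neutrophil-like cells, the class with the most cells, Cxcr4 had 0.26 (0.20 to 0.32), Itga4 0.42 (0.27 to 0.57), Kit 0.57 (-0.02 to 1.20) and Il7r 0.86 (-0.06 to 1.93), the last from 13 and 35 UMIs. Vcam1 in macrophage-like cells fell by 1.01 (-1.19 to -0.84), from 812 to 413 UMIs. The gene was seen in 29 of 39 vehicle and 28 of 53 1NMPP1 cells, the 3 highest cells held 47.4% and 59.3% of its UMIs, and without those cells the ratio was -1.53. In macrophage-like clusters with at least 15 cells in each library it was -0.64. The macrophage markers summed to 10750 and 9797 CPM with none at 0, and mature neutrophil markers in the same cells to 870 and 1964 CPM; their part in the difference was not tested. Over all genes, 3.37% of values in these cells were past 2-fold higher and 4.33% lower. In the same cells Kitl fell by 2.54 (-4.66 to -1.15; 25 and 4 UMIs) and Il7r was 1.71 higher (0.60 to 3.12; 8 and 28 UMIs).

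In T cell-like cells (84 and 110 cells) Il7r, which naive and memory T cells carry, stood at 86.2 and 197 CPM, in 22 and 48 cells, a ratio of 1.18 (0.77 to 1.63). Kit there had 0 UMIs in vehicle and 23 in 1NMPP1, in 8 of 110 cells; against a floor of 3 UMIs in vehicle (4.17 CPM) its 23.4 CPM was at least 5.62-fold higher. Kit in erythroid-like cells fell by 2.36 (-3.29 to -1.61), from 35.1 CPM in 22 of 247 cells to 6.64 CPM in 10 of 215. The same direction was seen in DRG erythroid-like cells, where Kit fell by 1.53 (-2.47 to -0.74) from 11 of 310 cells to 3 of 339, and 3 vehicle cells held 71.7% of the vehicle UMIs. All genes in those classes had median ratios of -0.25 (growth plate) and -0.46 (DRG), with 7.39% and 21.8% of genes past 2-fold lower. With each cell weighted alike the DRG value turned to 3.43, and among female-called cells the growth plate value was 0.0153.

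The remaining growth plate values past 2-fold were higher with 1NMPP1 and rested on few UMIs. Cxcr4 was 1.11 higher in chondrocyte-like cells (0.10 to 2.12; 18 and 19 UMIs) and 1.13 higher in an unnamed antigen-presenting cluster led by H2-Aa, H2-Eb1 and Cxcl9 (0.56 to 1.77; 203 and 450 CPM). Il7r was 1.16 higher at the granule stage of neutrophils (0.39 to 2.05; 18 and 52 UMIs, 0.850 and 1.94 CPM). Kit was 1.33 higher in megakaryocyte and platelet-like cells (0.66 to 1.99; 50.3 and 126 CPM in 54 and 34 cells), and -0.35 with each cell weighted alike. The Il7r level at the granule stage lay near that of mature neutrophil-like cells.

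In the DRG, Cxcr4 was the gene that differed in most classes. It was higher with 1NMPP1 in 11 of 12 classes, with the counting interval above 0 in 8 and below 0 in none, a median of 0.63; over all genes and classes, 17.8% of values had an interval above 0 and 13.4% below, with a median of 0.08. In pre-B-like cells it stood at 437.4 CPM (408.1 to 468.2) and 714.8 CPM (667.7 to 764.3), a ratio of 0.71, and in mature neutrophil-like cells at 411 and 797 CPM, a ratio of 0.95. The pre-B-like clusters differed. Within cluster 22.0 (296 and 80 Cxcr4 UMIs) the ratio was -0.01 (-0.39 to 0.34), within cluster 5.0 (184 and 229) 0.88 and within cluster 5.1 (73 and 250) 1.02. Cxcr4 was past 2-fold in monocyte-like cells (156 and 367 CPM, 1.23), granulocyte progenitor-like cells (53.4 and 187 CPM, 1.81), erythroid-like cells (25.9 and 52.8 CPM, 1.03) and satellite glia-like cells (45.5 and 138 CPM, 1.60). Of all genes in monocyte-like cells 4.22% were past 2-fold higher and 3.58% lower, and in satellite glia-like cells 6.39% and 3.72%. In granulocyte progenitor-like cells, where the Cxcr4 ratio was largest, 15.6% of all genes were past 2-fold higher and 1.91% lower with a median of 0.33, and in erythroid-like cells 1.9% were higher and 21.8% lower. T cell-like cells were the class with a lower value (-0.17, interval -0.65 to 0.29). In the growth plate the same count was 13 of 21 classes higher, with a median of 0.04 and the interval above 0 in 6. Over all genes there, 86313 of 179011 values were higher, 9.11% had an interval above 0 and the median was -0.01. Whether the tissues differ in this was not tested.

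Satellite glia-like cells, which wrap sensory neurons, are the non-blood class among these. Cxcr4 was seen in 223 of 617 vehicle cells (36.1%) and 115 of 196 1NMPP1 cells (58.7%). In myelinating Schwann-like cells, which should lack it, the shares were 5.46% and 6.67%. Thinned to 1000 UMIs the shares were 3.26% and 9.28% in satellite glia-like cells and 2.38% and 2.5% in myelinating Schwann-like cells, so the vehicle share lay near that background. Median depths were 14923 and 12236 UMIs in the satellite glia-like and 6346 and 4478 in the Schwann-like cells. Blood markers were low in the glia: macrophage markers summed to 4.43 and 3.15 CPM, mature B cell markers to 19.12 and 25.99 CPM and mature neutrophil markers to 116 and 79.9 CPM. The class was made of different clusters in the libraries. Clusters 1.1, 1.2, 2.1 and 2.2 held 151, 81, 112 and 91 vehicle cells but 7, 3, 6 and 3 of the 1NMPP1 cells. Within cluster 1.0 (67 and 105 cells) the Cxcr4 ratio was 0.73 (0.43 to 1.04) and within cluster 2.0 (76 and 55 cells) 1.87 (1.27 to 2.51). Kit in satellite glia-like cells had a ratio of 0.76 over the class with 0.08 (-0.22 to 0.38) within cluster 1.0 and 0.68 (0.11 to 1.25) within cluster 2.0. Ackr3, at 61.9 and 70.5 CPM, had 0.19 over the class (-0.06 to 0.43), 0.55 (0.14 to 0.97) within cluster 1.0 and -0.04 (-0.77 to 0.62) within cluster 2.0. Both CXCL12 receptors were detected together in 120 of 617 and 54 of 196 of these cells.

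Vessels and fibroblasts of the ganglia held the other large values. In DRG endothelial-like cells Vcam1 rose from 24.8 to 118 CPM, a ratio of 2.24 (1.85 to 2.66) that left out 0; the UMIs sat in 18 and 16 cells, and 1 cell held 22 of 74 vehicle and 57 of 169 1NMPP1 UMIs. The ratio was 2.08 without the 3 highest cells of each library and 1.37 with no barcode removed as a doublet. In the same cells Lepr was 1.26 higher (0.70 to 1.83; 28 and 25 cells) and Ackr3 1.86 higher (1.17 to 2.59; 13 and 10 cells), the latter 1.05 without the 3 highest cells. The 1NMPP1 cells highest in Vcam1, Lepr and Ackr3 (57, 15 and 13 UMIs) each had 18 UMIs of marrow stromal markers. The median outside the 3 highest cells was 1. In vehicle the highest cells had 3, 3 and 2, against a median of 2. Whether 1 cell was highest in all of these genes was not tested. All genes in the DRG endothelial-like cells had a median of 0.22, with 8.34% past 2-fold higher and 3.54% lower.

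In DRG fibroblast-like cells Cxcl12 fell from 523.9 CPM (486.8 to 563.0) to 82.81 CPM (67.07 to 101.1), a ratio of -2.65 (-2.98 to -2.35). It was seen in 53 of 105 and 45 of 110 cells, a similar number, but 3 vehicle cells held 561 of the 741 vehicle UMIs (279, 184 and 98). Without the highest cell of each library the ratio was -2.12, and without the 3 highest -1.01. The difference lay mostly in the cluster led by Col3a1, Igfbp5 and Sfrp4 (27 and 15 cells), which went from 610 to 26 UMIs (-3.28, interval -3.93 to -2.74). The cluster led by Apod, Dcn and Ccl11 (61 and 53 cells) had -0.44 (-0.93 to 0.02) and the cluster led by Igf2 and H19 (17 and 42 cells) -1.12 (-2.34 to 0.07), so the libraries also differed in which clusters make up the class. The 3 highest vehicle cells had 79, 8 and 96 UMIs of marrow stromal markers, against a median of 5.5 in the other vehicle cells, and the 3 cells highest in Cxcl12 of the 1NMPP1 library, with 23 Cxcl12 UMIs in all, had 151, 128 and 29. Over the class these markers summed to 4130 and 5470 CPM, with 2 and 4 of 8 at 0; their part in the difference was not tested. Vcam1 in the same class fell by 1.02 (-1.70 to -0.41; 75 and 30 UMIs), and Lepr was 0.70 higher (0.36 to 1.04); of all genes in the class, 4.53% were past 2-fold higher and 3.27% lower.

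The last values past 2-fold in the DRG came from few UMIs. Kitl in myelinating Schwann-like cells fell by 1.96 (-3.59 to -0.83; 43 and 6 UMIs, 20 of the 43 in 1 cell), and Kit there was 1.39 higher (0.10 to 2.80; 9 and 14 UMIs). Itga4 was 1.07 higher in macrophage-like cells (0.41 to 1.74; 38 and 43 UMIs; all genes there, 5.18% higher and 4.63% lower) and fell by 1.55 in the neuronal cluster led by Gal (-4.11 to -0.04; 26 and 3 UMIs). Kitl was lower in 5 of the 8 DRG classes in which it could be read, with a median of -0.51. Its counting interval lay below 0 in 4 classes and above 0 in 0. Over all genes, 80559 of 143544 DRG values were higher, 13.4% had an interval below 0 and the median was 0.08.

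**Figure D4:**
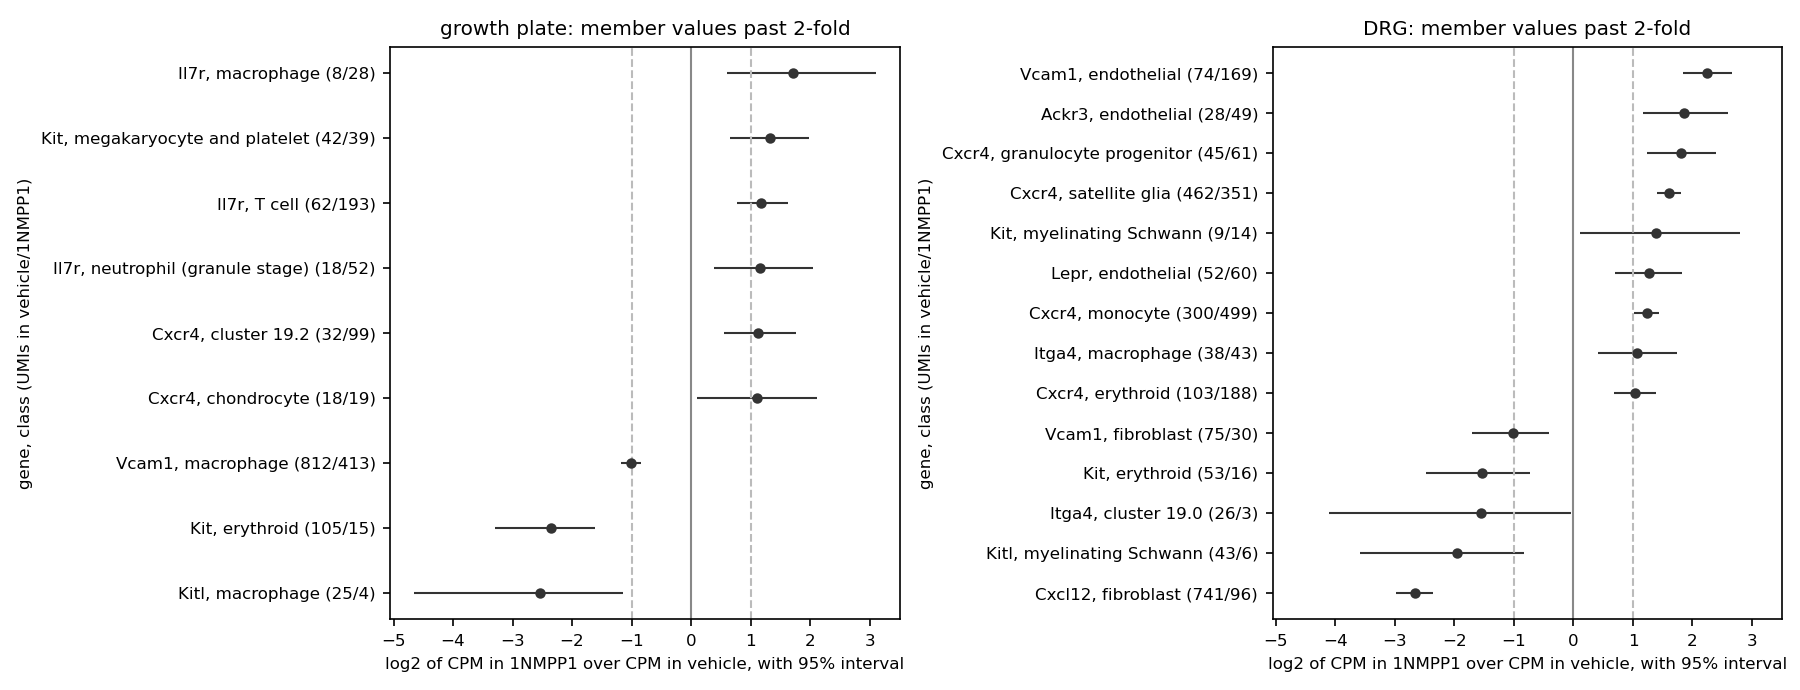
Log2 ratios, 1NMPP1 over vehicle, of the gene and class values past 2-fold, with 95% counting intervals, for growth plate (9 of the 10 values; Kit in T cell-like cells, with 0 vehicle UMIs, is not drawn) and DRG (14 values); dashed lines mark 2-fold either way. Cxcr4 has 4 of the 9 higher DRG values, and the lowest DRG value is Cxcl12 in fibroblast-like cells at -2.65.

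The partner genes of each pathway, 77 in 6 lists, were read in the same classes. Over all genes, 2.06% of growth plate values were past 2-fold higher and 2.48% lower, and 5.4% and 4.98% of DRG values. Of the CXCL12 partners, such as arrestins and receptor kinases that switch CXCR4 off, 1 value was past 2-fold higher and 1 lower of 155 in the growth plate, and 15 and 3 of 114 in the DRG, or 0.645% each way and 13.2% and 2.63%, with medians of 0.03 and 0.32. In DRG pre-B-like cells, where Cxcr4 had a ratio of 0.71, the receptor kinase Grk6 stood at 82.2 and 191 CPM (1.21), and in satellite glia-like cells the arrestin Arrb1 stood at 24.5 and 53.2 CPM (1.12). KIT signalling genes gave 3 higher and 2 lower of 213 in the growth plate and 6 and 9 of 161 in the DRG (1.41% and 0.939%, then 3.73% and 5.59%; medians -0.03 and 0.05). Interleukin 7 receptor partners gave 1 and 2 of 167 and 11 and 10 of 118 (0.599% and 1.2%, then 9.32% and 8.47%; medians 0.08 and 0.21). In DRG endothelial-like cells Socs1, an inhibitor of cytokine signalling, stood at 52.0 and 141 CPM (1.44). Il2rg, of the same list, had a ratio of -1.30 in those cells (43 and 8 UMIs), and Il7r had 0 UMIs there in both libraries. Adhesion genes gave 1 and 6 of 223 and 8 and 11 of 121 (0.448% and 2.69%, then 6.61% and 9.09%; medians 0.00 and -0.04). Beside Vcam1 in DRG endothelial-like cells, fibronectin (Fn1), the other ligand of VLA-4, stood at 34.5 and 163 CPM (2.24) and P-selectin (Selp) at 167 and 360 CPM (1.11). In the same cells Cd44 (15.1 and 6.98 CPM) fell by 1.06 and Selplg, the ligand of P-selectin (15.1 and 6.29 CPM), by 1.20, from few UMIs. Leptin receptor signalling genes gave 4 and 2 of 117 and 7 and 5 of 99 (3.42% and 1.71%, then 7.07% and 5.05%; medians 0.04 and 0.26).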

How the data were processed

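Gene by cell tables of raw UMI counts, deposited by the authors for 4 libraries, were analysed; the file headers name Cell Ranger 7.2.0 and the submitters' processing notes mm10, and hold whole-number counts with no normalization. The 10 genes, the 33 marker sets and the 6 lists were chosen with earlier results of these data known. Barcodes with under 200 genes (65 to 393 per library) or over 20% mitochondrial counts (56 to 344) were left out, and the highest Scrublet scores, 0.8% per 1000 barcodes, were removed as doublets (731, 1115, 108 and 55), because Scrublet's own threshold would have marked 274, 562, 19 and 5. Cells from vehicle and 1NMPP1 were pooled per tissue for clustering (scanpy 1.11.5, leidenalg 0.10.2, Python 3.11.15) on 2000 variable genes without the 10 genes, the lists and sex-linked genes, with 30 components, 20 neighbours and resolution 1. Clusters of 60 or more cells were split again at resolution 0.5 only where a second class also scored high. That meant a marker score of at least 1 and at least 0.5 of the best score. A cluster took a class name where the class's score was at least 1 and at least 0.8 of the best score, with at least 3 markers detected. At least 1 of the class's markers also had to be among the 50 leading genes of the cluster, and no other class could have more among the first 10. A shallow cluster with no such marker among those 10 stayed unnamed. This rule was settled after the clusters were seen, and clusters that missed it stay unnamed. CPM were computed from summed counts, with exact Poisson intervals and exact conditional intervals of ratios (scipy 1.17.1). Each group has 1 library, so no p-value was computed. All 10 genes are named; of the lists, genes with at least 20 UMIs in a class and a log2 ratio of 1 or more either way may be named, as may the gene with the highest share in 1 class. The 3 most similar genes per member needed at least 200 UMIs. Alternatives changed doublet removal, both cell filters, resolution, the variable genes, depth, cell weighting, sex calls and the UMI added. The ratio calculation was tested on simulated data. Sequences of 8 members were taken from RefSeq's promoters; those of Il7 and Vcam1 were not used here.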

Additional observations from a re-analysis of the deposited data

How the results depend on the processing

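The count of gene and class values past 2-fold (10 in growth plate, 14 in DRG) stayed within 1.5 times of these under 8 alternatives in both tissues. It moved further under others: thinning each cell to 1000 UMIs gave 1 in growth plate and 4 in DRG, of 40 and 23 values that could still be read (all genes, 2.9% and 7.4%); female-called cells gave 3 and 8; male-called cells gave 3 in growth plate; a minimum of 100 UMIs gave 4 and 8; and a minimum of 50 cells gave 4 in growth plate. The cause was not tested, except that fewer values can be read in each of these. When thinned, the growth plate share (1 of 40) lay below that of all genes, and the DRG share (4 of 23) lay above it. The share of all genes past 2-fold is given here only for thinning, so the other counts do not show whether the members stayed above it. In 5 cases a single value turned direction: Itga4 in DRG macrophage-like cells (-0.063 when thinned, from 4 and 3 UMIs), Kit in growth plate megakaryocyte and platelet-like cells (-0.35 with each cell weighted alike, -1.0003 in female-called cells), Kit in DRG erythroid-like cells (3.43 with each cell weighted alike) and Kit in growth plate erythroid-like cells (0.0153 in female-called cells, from 4 and 10 UMIs). Besides these, thinning took 13 of 25 values outside their counting interval, female-called cells 15 of 34 and male-called cells 14 of 35. The count was 7 of 33 with no doublet removal, 4 of 34 with each cell weighted alike, 1 of 33 at resolution 2 and 0 of 35 with either cell filter changed. Of the alternatives chosen after seeing the data, leaving out the highest cell took 2 of 35 values outside their counting interval, leaving out the 3 highest took out 5 of 35, and keeping clusters with at least 15 cells in each library took out 3 of 31. None of these last alternatives turned a direction. Cxcl12 in the growth plate marrow stromal-like cells of both libraries together, 8287 CPM, was 8966 CPM with the 10 genes allowed among the variable genes, 11000 CPM when thinned and 12030 CPM with each cell weighted alike. With no doublet removal or at resolution 2 no cluster took the marrow stromal name, so its levels could not be given. Depth limits Il7 most, with 25 UMIs in growth plate vehicle, and the stromal values rest on 18 cells. No paired analysis was possible because the labels give no replicate numbers and each group has 1 library.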

Other observations

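Other niche genes, read from a list of colony-stimulating factors, Notch ligands, angiopoietin and their receptors, gave 4 values past 2-fold higher and 6 lower of 153 in the growth plate and 12 and 7 of 132 in the DRG. These are 2.61% and 3.92%, then 9.09% and 5.3%, beside 2.06% and 2.48%, then 5.4% and 4.98%, over all genes, with medians of 0.04 and 0.29. Several were held by the same vessels and stroma as Cxcl12 and Kitl. Growth plate endothelial-like cells had 91.8% of the summed CPM of Csf3, the neutrophil growth factor, 75.9% of Tek, the angiopoietin receptor, and 80.7% of Sele, an adhesion selectin. DRG endothelial-like cells had 95.3% of Dll1 and 86.8% of Dll4, which are Notch ligands. Marrow stromal-like cells had 73.4% of Gas6, the ligand of the receptor kinases Axl and Mertk, whose highest levels were in macrophage-like cells (473 and 530 CPM over both libraries), and 59.4% of the chemokine Cxcl14.

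Some list genes were past 2-fold. In satellite glia-like cells Socs3, an inhibitor of cytokine signalling, went from 342 to 1035 CPM, a log2 ratio of 1.60, and Cxcl14 from 5.32 to 24.8 CPM (2.22). In DRG fibroblast-like cells Cxcl14 fell by 3.74, from 51.6 to 3.45 CPM. In growth plate megakaryocyte and platelet-like cells, where Kit was higher, Tln1 (1070 and 236 CPM) fell by 2.17. In growth plate NK and innate lymphoid cell-like cells Angpt1, the ligand of Tek, stood at 39.4 and 106 CPM (1.39), while in erythroid-like cells it fell by 2.57 (30.1 and 4.87 CPM), and in DRG macrophage-like cells Gas6 stood at 186 and 429 CPM (1.21). Each group is 1 library, so these values have no replicate check.

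In growth plate endothelial-like cells of the 1NMPP1 library, 1 cell held 250 of the 344 Cxcl12 UMIs of the class, which stood at 605 CPM against 25.4 CPM in vehicle (6 UMIs). The same cell held 84 Cxcr4, 34 Kitl and 10 Lepr UMIs, or 95.5%, 31.2% and 43.5% of those in the class and library. It also held 22 Vcam1 UMIs, so the endothelial-like levels of these genes given above rest partly on it. Marrow stromal markers in that class summed to 262 CPM in vehicle and 1468 CPM in 1NMPP1; whether the cell is a doublet was not tested.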
